A study of Homo sapiens with 3 samples.

Results

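The carbonic anhydrases are a family of zinc enzymes, and 7 of their genes were followed here by name: CA2, CA5B, CA8, CA9, CA11, CA12 and CA13. All probes of these genes on the array were taken, by current symbol or older alias. CA9 had no probe in the annotation used here and was not analysed, which left 8 probes of 6 genes, all of which exceeded background on at least 1 array, among 11914 genes that did so in all (of 18852 named on the array). The genes were selected on their intensity differences between resistant clones and parental cells, so those differences are given as a description, without a test.

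The cells were HCC827, a human lung adenocarcinoma line that depends on a mutant EGFR, and sublines of it resistant to BIBW2992. This drug, also called afatinib, blocks the EGFR and ERBB2 kinases irreversibly. HCC827-BR1 and HCC827-BR2, called clone 1 and clone 2 here, each came from an individual clone grown out under rising BIBW2992 of up to 2 µM during 3 to 4 months. Each clone and the BIBW2992-sensitive parental line was measured on 1 Illumina HumanHT12 v3 BeadChip, an expression array, so the reference is a single array and the spread of the parental line is unknown. The labels name no drug-free clone, and do not say whether drug was present when RNA was taken or whether the clones arose from separate cells. The effects of selection, of cloning, of months in culture and of drug left in the medium cannot be told apart here.

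Carbonic anhydrases turn carbon dioxide and water into bicarbonate and a proton, and back. CA2 and CA13 work in the cytosol, CA5B in mitochondria, and CA12, like CA9, sits in the plasma membrane with its active site outside the cell. CA8 and CA11 are related proteins that have lost the enzyme activity. CA2 is among the fastest enzymes known and is abundant in red cells, osteoclasts and acid- or bicarbonate-secreting epithelia. CA12 is found in secretory epithelia, airway included, and CA9 is a classical target of the hypoxia-inducible factors (HIF).

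An intensity above 66.1 in clone 1, 70.7 in clone 2 and 69.3 in parental cells counted as above background, which 34.5%, 33.8% and 35.1% of the 48803 probes reached. Among 576 probes of olfactory, taste and vomeronasal receptor and keratin-associated protein genes, which should be silent, 3.99% did so on each array. Of 6 epithelial markers 5 exceeded background on each array, and KRT18 on none. Their summed intensity was 10369 in clone 1 and 7495 in clone 2, against 51070 in parental cells. The fall was uneven: EPCAM had 1554 and 528 in clones 1 and 2, against 18523 in parental cells. KRT7 had 1916 and 4013, against 4375. Of the lung markers, NKX2-1 was below background in both clones at 52.8 and 52.4, against 1130 in parental cells. NAPSA had 133 and 81.3, against 2184, and SFTPB and SFTPC were below background on all 3 arrays. These markers moved between the same arrays as the carbonic anhydrases, and their part in the results was not tested. Among cell types rich in CA2, the erythroid markers HBB, ALAS2 and SLC4A1 were below background on all 3 arrays. HBA2 barely passed the threshold in clone 1 at 66.6, and had 59.6 in clone 2 and 58.2 in parental cells. The osteoclast marker CTSK was dim everywhere, at 72.9 and 78.4 in clones 1 and 2 and 84.2 in parental cells. OSCAR was dim too, at 85.6 and 80.5, against 91.2, and CALCR was below background on all 3 arrays. In RNA from whole cultures, a change in the number of expressing cells and a change in RNA per cell cannot be told apart.

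**Figure D1:**
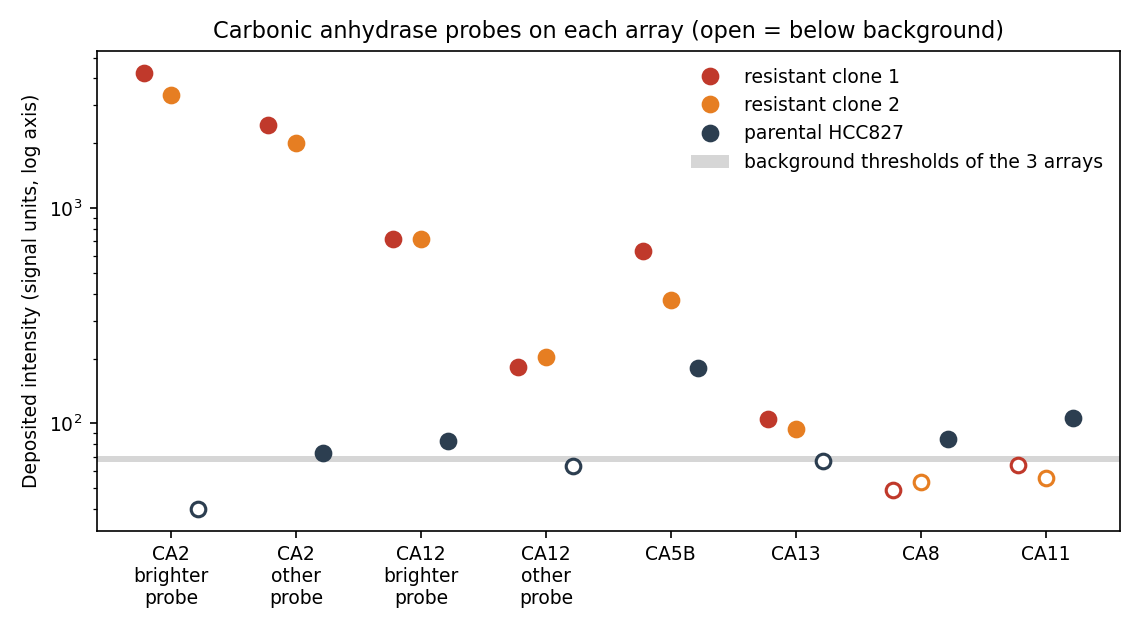
Deposited intensity (log axis) of each carbonic anhydrase probe on the 3 arrays, with filled points above and open points below background. CA2, CA12, CA5B and CA13 lie higher in both clones than in parental cells, and CA8 and CA11 lie lower, below background.

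Among the active enzymes, CA2 differed most. Its brighter probe had an intensity of 4257 in clone 1 and 3341 in clone 2, against 40.1 in parental cells, and its other probe had 2440 and 2002, against 72.6. Both clones were thus bright on both probes, whereas the parental array was below background on the brighter probe and just above it on the other. After background correction and quantile normalization the clones averaged 11.92 ± 0.27 on the log2 scale on the brighter probe (SD, n = 2), against 4.04 in parental cells (n = 1). Because parental cells were below background on this probe, its difference is a bound. On this background-corrected scale, the lower bounds of the brighter probe were 106 (clone 1), 81.4 (clone 2) and 93.0 (both clones), as folds over parental cells. These bounds hold for that probe and not for the gene, as the other probe gave smaller folds. Without background correction, in the authors' processed table, the lower bound of the brighter probe over both clones was 57.3-fold. The other probe, measured on all 3 arrays, was 56.9-fold higher in clone 1 and 44.9-fold in clone 2 on the background-corrected scale. Its mean log2 difference was 5.66 (SD of the clones 0.24, n = 2). In the authors' processed table, the other probe was 36.2-fold higher in clone 1 and 28.6-fold in clone 2. By the mean log2 difference of its brighter probe, 7.88, CA2 stood 4th from the top of the 11914 genes, a place that rests on a parental value below background. In the authors' processed table, that difference was 6.61.

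CA12, the membrane enzyme, was the second in size. Its brighter probe had 717 and 716 in clones 1 and 2, against 82.5 in parental cells, which lay 1.19 times over the background threshold. The clones were alike, and both were clearly above the parental array. The log2 signal averaged 9.48 ± 0.03 in the clones (SD, n = 2), against 5.74 in parental cells, a 13.4-fold difference (log2 3.74). This fold depends on the handling of background: in the authors' processed table, which has no such correction, the log2 difference was 3.21. The other CA12 probe had 183 and 203 in the clones, against 63.4 in parental cells, where it was below background, so that it was at least 4.12-fold higher on the background-corrected scale and at least 2.91-fold in the authors' table. The deposited intensities, background included, stood 2.89 and 3.20 times over the parental value. CA12 stood 46th among all genes by its brighter probe.

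CA5B, the mitochondrial enzyme, had the highest parental signal of these genes. Its probe had 631 in clone 1 and 375 in clone 2, against 180 in parental cells. The 3 arrays were well apart, and clone 1 was the highest. CA5B was 4.33-fold higher in clone 1 and 2.45-fold in clone 2 (mean log2 difference 1.70, SD of the clones 0.58, n = 2). A pseudogene, CA5BP1, lies beside CA5B; whether the probe also picks up its transcripts was not tested.

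CA13, the second cytosolic enzyme, was dim. It had 105 and 94.0 in clones 1 and 2, against 67.1 in parental cells, just under the threshold of 69.3. The bound on the background-corrected scale was 1.98-fold in clone 1 and 1.63-fold in clone 2, against 1.60-fold and 1.39-fold in the authors' table. The deposited intensities stood 1.56 and 1.40 times over the parental value. The mean log2 difference, 0.91 (SD of the clones 0.20, n = 2), rests on a parental value below background and was 0.62 in the authors' table.

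The inactive relatives were lower in the clones, at low signal. CA8, which binds the inositol trisphosphate receptor of the endoplasmic reticulum, had 49.1 and 53.7 in the clones, against 84.8 in parental cells. CA11, a secreted relative, had 64.2 and 55.7, against 106. Each was above background in parental cells alone, so the differences are bounds: at least 1.30-fold lower for CA8 and at least 1.76-fold lower for CA11 on the background-corrected scale, and at least 1.18-fold and 1.47-fold in the authors' table. The mean log2 differences were -1.13 for CA8 (SD of the clones 0.03, n = 2) and -1.16 for CA11 (SD 0.39, n = 2), and -0.67 and -0.76 in the authors' table.

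Counted by fitted log2 differences, CA2, CA12 and CA5B, 3 of the 6 genes, stood at 1 or above in each clone, as did 4.68% of all genes, and CA8 stood at -1 or below in both, as did 5.27%. The place of CA8 rests on clone values below background, and its bound does not reach 2-fold. CA2 was also below background in parental cells, a combination found in 1.49% of all genes. Since these contrasts chose the genes, nothing is read from the counts. The fitted difference of CA11 was -0.89 in clone 1 and -1.44 in clone 2, and that of CA13 was 1.05 and 0.78. These too rest on values below background, and no bound of either gene reached 2-fold. CA8 no longer stood at -1 or below without background correction, with a larger offset and in the authors' table, whereas CA2, CA12 and CA5B stood at 1 or above there too.

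**Figure D2:**
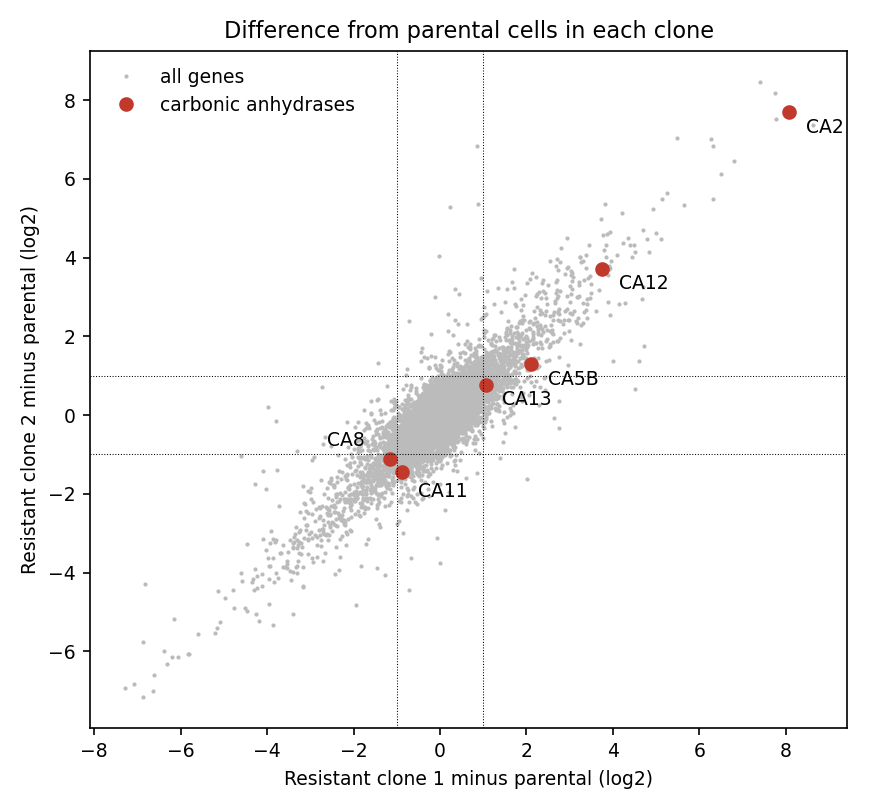
Log2 difference from parental cells in clone 1 (horizontal) and clone 2 (vertical) for 11914 genes (grey) and the 6 carbonic anhydrases (red), with dotted lines at 2-fold. Both axes share the 1 parental array. CA2 lies at 8.07 and 7.68, CA12 at 3.76 and 3.72, and CA8 and CA11 lie low on both axes.

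Between the clones, the median size of the log2 difference was 0.33 over the 6 genes, against 0.25 over all genes. None of the 6 was 2-fold apart on its brightest probe, where 3.78% of all genes were, and nothing is read from a count of 0 in 6. Each clone was 1 array, so no test was possible. CA5B came closest, with clone 2 below clone 1 by a log2 difference of -0.82, and 6.70% of all genes were at least as far apart. CA2 differed by -0.39 on its brighter and -0.34 on its other probe, and CA12 by -0.04 and 0.13. The median difference, clone 2 minus clone 1, was -0.33 over the 6 genes and -0.002 over all genes.

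RefSeq promoter windows (GRCh38.p14, from 250 bases before to 50 bases after the start of the gene) were on hand for 3 of the 7 genes. Those of CA12, at chr15:63381797-63382096 on the minus strand, and CA5B, at chrX:15738020-15738319 on the plus strand, are shown because both genes were higher in both clones and one of them is the membrane enzyme grouped with the HIF target CA9. Each is written on the strand of its gene, with the matches in capitals.
CA12: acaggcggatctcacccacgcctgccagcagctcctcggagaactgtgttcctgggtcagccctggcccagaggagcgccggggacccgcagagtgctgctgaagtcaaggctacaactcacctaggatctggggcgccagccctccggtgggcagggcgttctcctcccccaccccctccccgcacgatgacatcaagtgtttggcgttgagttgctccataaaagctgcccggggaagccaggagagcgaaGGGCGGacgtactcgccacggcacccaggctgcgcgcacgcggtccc
CA5B: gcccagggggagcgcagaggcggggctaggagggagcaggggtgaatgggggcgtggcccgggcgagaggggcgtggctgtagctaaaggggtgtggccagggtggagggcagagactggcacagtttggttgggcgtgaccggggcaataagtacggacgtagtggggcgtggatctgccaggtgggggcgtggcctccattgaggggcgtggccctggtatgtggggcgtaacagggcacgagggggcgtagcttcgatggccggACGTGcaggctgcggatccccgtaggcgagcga
Both strands were searched for the HIF core ACGTG, the GC box GGGCGG, the TATA box TATAAA, the nuclear receptor motif AGGTCA and the AP-1 site TGACTCA. The CA12 window held 1 match, a GC box, which 15786 of the 35116 windows in the table hold. The CA5B window held 1 match, the HIF core, found in 21.4% of windows. TATAAA stood in 11.5% of windows, AGGTCA in 13.8% and TGACTCA in 4.95%, and in neither of these. Both windows were rich in G and C, at 66.7% for CA12 and 69.0% for CA5B, against a median of 58.7%. A match describes the letters only.

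The rest of the family was nearly silent. Of 8 other carbonic anhydrases with a named probe, 7 were below background on all 3 arrays: CA1, CA3, CA4, CA5A, CA7, CA10 and CA14. Among all 18852 named genes, 11914 exceeded background on at least 1 array. The genes followed here were chosen on their differences, so nothing is read from their contrast with the rest of the family. No probe of these 8 genes exceeded 70.6 in clone 1 or 73.0 in clone 2, against 68.7 in parental cells. CA6, a secreted salivary enzyme, crossed the threshold in the clones by a narrow margin, at 70.6 and 73.0, against 68.7 in parental cells. CA1 and CA3, which lie between CA13 and CA2 on chromosome 8, were thus not detected beside them. PTPRG, a receptor phosphatase with a carbonic anhydrase-like domain, had 96.6 and 176 in clones 1 and 2, against 113 in parental cells, and was not called.

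Genes that work beside the enzymes were compared by limma, fitted over all 11914 genes with 1 residual degree of freedom from the clones, on the assumption that the parental line varies as much as they do. It called 2.67% of all genes higher and 3.08% lower at an adjusted p under 0.05. At an unadjusted p under 0.05 the shares were 10% and 10.5%, against which the unadjusted counts of each list are to be read. Of 8 bicarbonate transporters above background, 1 rose and 0 fell (2 and 0 at an unadjusted p under 0.05). The one that rose was SLC4A4, a sodium bicarbonate cotransporter that works with carbonic anhydrases in bicarbonate-secreting cells, with 614 and 378 in clones 1 and 2, against 99.0 in parental cells. Clone 1 was the higher of the clones and both exceeded the parental array. SLC4A4 rose 6.82-fold (log2 2.77, SE 0.39, limma adjusted p = 0.0252), and its other probe differed by 1.73. SLC4A7, the brightest of the list that was not called, differed by -0.18. The list median was 0.36, against 0.01 over all genes.

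Proton exporters and pumps gave no call. Among all genes limma called 2.67% higher and 3.08% lower, so nothing is read from counts of 0 in lists this short. At an unadjusted p under 0.05 the shares of all genes were 10% and 10.5%. Among 9 genes of proton and lactate export, 0 were called in either direction by limma (1 higher and 0 lower at an unadjusted p under 0.05, list median 0.22). BSG, the chaperone of lactate transporters, differed by 0.47 (adjusted p = 0.432). Among 18 subunits of the V-ATPase, the proton pump of acidic organelles, 0 were called in either direction (3 higher and 0 lower at an unadjusted p under 0.05, list median 0.22). ATP6V1D, its brightest member, had 6798 and 6264 in the clones, against 2826 in parental cells, with an adjusted p of 0.0600 that ranged between 0.0314 and 0.0709 under other settings. Of 9 water and gas channels only AQP6 exceeded background, and it differed by 0.30.

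**Figure D3:**
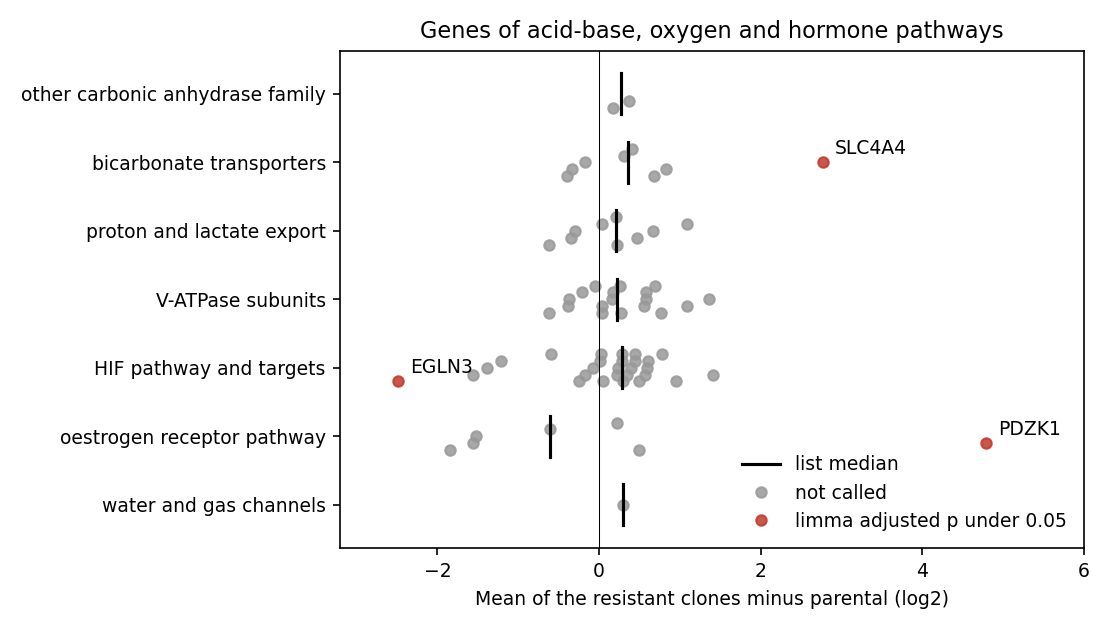
Mean log2 difference of the resistant clones from parental cells for each gene above background in 7 lists (points), with list medians (bars) and limma calls in red. SLC4A4 (2.77) and PDZK1 (4.79) lie to the right and EGLN3 (-2.49) to the left, while most other genes lie near 0.

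The HIF pathway is known to switch on CA9 and CA12 in many tumour cells. Of its 27 genes above background limma called 0 higher and 1 lower, beside 2.67% and 3.08% of all genes. At an unadjusted p under 0.05 the counts were 3 and 4, beside 10% and 10.5% of all genes. The list median was 0.28. The genes counted higher at the unadjusted threshold were ANGPTL4 (log2 1.41), ADM (0.95) and ANKRD37 (0.78). Those counted lower were EGLN3, VEGFA, DDIT4 (-1.56) and EPAS1 (-1.21). All but EGLN3 are named after their values were seen, and only EGLN3 was called. EGLN3, a prolyl hydroxylase that marks HIF for degradation and is itself a HIF target, had 69.8 and 83.1 in the clones, against 329 in parental cells, a 5.61-fold fall (log2 -2.49, SE 0.28, limma adjusted p = 0.0139). Both clones lay near background. ENO1, the brightest member, differed by 0.28 (adjusted p = 0.602). VEGFA, named here after its values were seen because it lay at the threshold, had 123 in each clone, against 300 in parental cells (adjusted p = 0.0504, with 0.0315 and 0.0602 as the extremes under other settings).

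The oestrogen receptor regulates CA12 in breast cells. Of 7 genes of its pathway above background, limma called 1 higher and 0 lower, beside 2.67% and 3.08% of all genes. At an unadjusted p under 0.05 the counts were 1 and 3, beside 10% and 10.5% of all genes. The list median was -0.60. ESR1, the receptor, was below background in both clones and at the margin in parental cells. Its fitted log2 difference, -0.60, rests on values below background. PDZK1, a scaffold for transporters at the apical membrane that is also an oestrogen-responsive gene, had 3021 and 1982 in the clones, against 122 in parental cells. PDZK1 rose 27.7-fold (log2 4.79, SE 0.36, limma adjusted p = 0.00591). XBP1 differed by 0.50. FOXA1, AGR2 and MYB, named after their values were seen, lay near the threshold on the lower side and were not called. The fitted difference of AGR2 rests on clone values below background, and that of MYB does so in part. As a bound on the background-corrected scale, AGR2 was at least 2.58-fold lower. FOXA1, a transcription factor that works with the oestrogen receptor, had 1259 and 1022 in the clones, against 3632 in parental cells (log2 -1.56, limma adjusted p = 0.0504, with 0.0307 and 0.0621 as the extremes under other settings). AGR2 was below background in both clones and differed by -1.85 (limma adjusted p = 0.0545, extremes 0.0328 and 0.0803 under other settings). MYB was below background in clone 2 and differed by -1.53 (limma adjusted p = 0.0574, extremes 0.0363 and 0.0860 under other settings).

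The genes next to CA2, CA12, CA5B and CA8 on their chromosomes were read in the same fit. CA13 and CA2 flank CA1 and CA3 in RefSeq gene order. Around CA2, the nearest genes with a value on the CA13 side, RBIS and E2F5, differed by -0.30 and -0.38. On the other side SLC7A13, an amino acid transporter, differed by 0.82 and exceeded background in clone 1 alone. The next gene, WWP1, a ubiquitin ligase, had 3192 and 3046 in the clones, against 977 in parental cells, and rose 3.59-fold (limma adjusted p = 0.0252). A second WWP1 probe was below background on all arrays. CPNE3 beyond it differed by 0.05. CA2 stood above these genes, with a parental value below background on its brighter probe. It was chosen on its difference from parental cells, so nothing is read from its place among its neighbours.

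Around CA12 no neighbour was called: the 3 on each side ran from -0.45 at APH1B to 0.90 at RPS27L. Around CA5B 2 of 6 neighbours rose. CLTRN, a renal amino acid transport protein, had 1948 and 2570 in the clones, against 232 in parental cells, and rose 11.7-fold (limma adjusted p = 0.00710). AP1S2, a clathrin adaptor subunit, had 541 and 956, against 128, and rose 7.44-fold (adjusted p = 0.0243), with 2.60 on its other probe. ZRSR2, between CA5B and AP1S2, differed by 0.13, and PIGA by -0.01. Clone 2 was the higher clone for CLTRN and AP1S2, where CA5B was higher in clone 1. Around CA8 no neighbour was called, and values ran from -0.98 at ASPH to 1.10 at TOX. Over the 23 neighbours limma called 3 higher and 0 lower, beside 2.67% and 3.08% of all genes. At an unadjusted p under 0.05 the counts were 8 and 1, beside 10% and 10.5% of all genes. The median of the neighbours was 0.20.

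**Figure D4:**
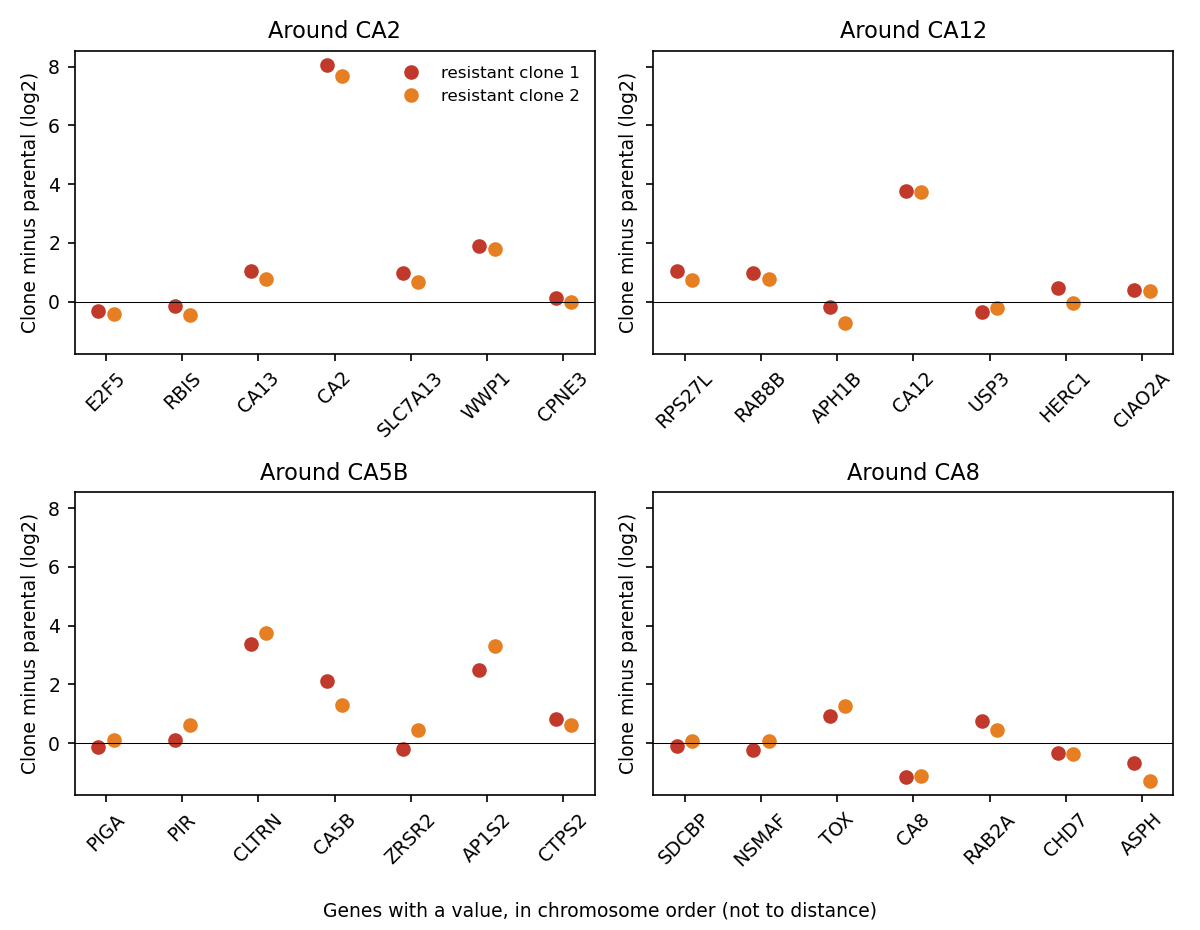
Log2 difference from parental cells in clone 1 (red) and clone 2 (orange) for the nearest 3 genes with a value on each side of CA2, CA12, CA5B and CA8, in chromosome order. CA2 and CA12, which were chosen on their differences, stand above their neighbours, and CLTRN and AP1S2 lie above CA5B.

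Genes most like each carbonic anhydrase were found by the distance between their pairs of log2 differences, which is a description over 2 clones that share 1 parental array. Nearest to CA2 were TNFAIP6, a hyaluronan-binding protein (distance 0.35), ALDH1A1, a retinaldehyde dehydrogenase (0.58), AKR1C2, an aldo-keto reductase (0.63), CRP, an acute-phase protein (1.02), and IGFBP7, a binder of insulin-like growth factors (1.76). Only 3 genes lay within a distance of 1 of CA2, and all 5 but AKR1C2 were below background in parental cells. The second probe of TNFAIP6 differed by -0.05 and the other 4 probes of AKR1C2 by -0.19 to 0.89, so for those genes the likeness rests on 1 probe. The second ALDH1A1 probe differed by 8.77. Nearest to CA12 were EFHB, PPARGC1A, a coactivator of mitochondrial genes, and NUDT11, at distances of 0.14 to 0.17, with 55 genes within 1. PPARGC1A and NUDT11 were below background in parental cells, so their differences are bounds, at least 9.17-fold and 9.27-fold on the background-corrected scale. Nearest to CA5B were UGT1A6, USH1C and LGALS1, which encodes galectin-1, with 372 genes within 1. UGT1A6 too was below background in parental cells, with a bound of at least 1.99-fold on that scale. Nearest to CA8 were ISG20, KLHL30 and EVI5L, but 1986 genes lay within 1 of it, so little sets its pattern apart.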

How the data were processed

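Total RNA was biotin-labelled and hybridised to 1 array per cell line, per the labels' protocols. The deposited table holds a linear intensity for 48803 probes without background subtraction, detection p-values or control probes. Which program summarised the beads was not stated. The other deposited table holds intensity processed by the authors, on a linear scale. Its column medians are 59.7 in clone 1, 59.7 in clone 2 and 59.6 in parental cells and its columns share 1 distribution, as after quantile normalization without log or centring, by steps not given in the sources used here. It served as an alternative.

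Intensities were corrected with normexp (limma 3.58.1, R 4.3.3, offset 16), put on the log2 scale and quantile normalized. A probe exceeded background at a one-sided p under 0.01 against the mode and lower spread of each array's dim probes. Probes were named from the platform annotation, updated by Entrez ID through RefSeq (GRCh38.p14): 28098 had 1 gene, 13 several, and 20692 none. A gene entered on its brightest probe above background on at least 1 array. Bounds ("at least N-fold") set the bright group's mean against the lowest signal above background. Resistant and parental cells were compared by limma (lmFit, eBayes, prior of 4.08 degrees of freedom) with Benjamini-Hochberg adjustment over 11914 genes. The code was first run on simulated data that gave every array independent noise of the same spread. That run cannot bear on the spread of parental cells or on whether the clones are independent. Nothing in the labels shows the clones to be independent. The p-values rest on the spread between the 2 clones and a prior drawn from all genes, and hold no spread of parental cells.

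The genes and lists were chosen with earlier results of these data known. Named from each list were up to 3 calls in each direction by size and the brightest gene not called; for CA2 the 5 and for CA5B, CA8 and CA12 the 3 genes of nearest pattern, leaving out provisional symbols; and the nearest 3 genes on each side of those 4. The number of arrays limits the precision.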

Additional observations from a re-analysis of the deposited data

How the results depend on the processing

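Every carbonic anhydrase kept its direction under each alternative that gave it a value. The mean log2 difference of the clones from parental cells ranged from 5.66 to 8.07 for CA2, from 2.99 to 3.76 for CA12, from 1.29 to 2.11 for CA5B, from 0.56 to 1.05 for CA13, from -1.18 to -0.59 for CA8 and from -1.44 to -0.69 for CA11. Requiring background to be exceeded on all 3 arrays removed CA13, CA8 and CA11. The number with a fitted log2 difference of -1 or below in both clones, 1, became 0 with an offset of 50, without background correction, in the authors' processed table and with detection on all 3 arrays. Leaving out a clone gave 3 to 4 genes at 1 or above, with CA13 added when clone 2 was left out, and 1 to 2 at -1 or below, with CA11 added when clone 1 was left out. With detection on all 3 arrays limma called 148 genes higher and 134 lower, against 318 and 367, as fewer genes entered. Calls of lower genes in the pathway lists, 1 in the main setting, numbered 2 with an offset of 50, without background correction, in the authors' table and with a trended prior, 3 with the mean of a gene's probes, 4 with detection from silent genes, and 5 with median scaling and with no filter on dim probes; the cause was not tested. SLC4A4, EGLN3, PDZK1, WWP1, CLTRN and AP1S2 stayed called in all 9 refits. Leaving out a clone left limma no residual degrees of freedom, so no calls were made there. No paired analysis was possible because the parental line has 1 array, with no number in the labels.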
